A study of Mus musculus with 4 samples.

Results

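The H3K9 histone demethylases are the enzymes that take methyl groups off lysine 9 of histone H3, the residue that the methyltransferase Suv39h1 methylates. The mouse genes of this kind that were followed here are Kdm1a, Kdm3a, Kdm3b, Kdm4a, Kdm4b, Kdm4c, Kdm4d, Kdm7a, Phf2 and Phf8. They were chosen by name, and all 10 were found among the 23552 genes of the deposited expression table. RNA-Seq had been performed on c-Kit+ leukemic cells from the bone marrow of moribund C57BL/6 mice with acute myeloid leukemia (AML) induced by MLL-AF9 (MA9), a fusion oncogene. All cells of both groups carried MLL-AF9. The control group (2 libraries, replicates 3 and 4) carried an eGFP overexpression construct, and the SUV-OE group (2 libraries, replicates 2 and 3) overexpressed Suv39h1 with eGFP. All 4 libraries were labelled as RNA-seq batch 2. According to the study, the Suv39h1 construct was delivered by lentivirus to leukemia cells that had already been passaged through recipient mice. For the control construct in mouse cells, the text of the study does not state the delivery. The labels did not say whether each library came from a separate mouse, so p-values measured the spread between libraries.

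Methylation of H3K9 marks silenced chromatin, and trimethylated H3K9 is bound by HP1 proteins. The mark is written by enzymes such as SUV39H1 and removed by a pair of unrelated enzyme classes. KDM1A (LSD1) uses FAD and removes mono- and dimethyl groups from H3K4 and H3K9. The other members carry a Jumonji C (JmjC) domain, which uses iron, oxygen and 2-oxoglutarate. Among them, the KDM4 enzymes act on trimethylated and dimethylated H3K9, while KDM3A, KDM3B and the KDM7 family (KDM7A, PHF2 and PHF8) act on the lower methylation states. KDM1A and KDM4 enzymes are known for their part in MLL-rearranged leukemia.

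Of the 10 demethylase genes, 9 were tested, and 0 were called as differentially expressed between SUV-OE and control c-Kit+ cells. Of all tested genes, only 1.22% were called, so 0 of 9 does not set the family apart. Kdm3a and Kdm7a were the members with the largest differences. Their levels were 37.0% and 38.7% higher in SUV-OE, without passing the test over all genes. Log2 fold changes as large, 0.4 or more in either direction, were seen in 24.7% of all tested genes. The KDM4 genes, whose products remove the trimethyl mark that Suv39h1 helps to write, had summed levels that overlapped between the groups. Of the others, Phf8 was slightly higher in both SUV-OE libraries, Kdm4d was not detectable, and Kdm1a, Kdm3b and Phf2 varied at least as much between the control libraries as between the groups.

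Expression was given as FPKM, fragments scaled to transcript length and to the mapped reads of the library, so levels of different genes can be compared. Reads were recovered from the steps between FPKM values. Rounded and summed over all genes with an exon length, they came to 20085719 to 23561089 per library. In each library this sum exceeds the mapped reads implied as the FPKM divisor, which were 16873770 to 19453058. The sums include genes whose reads were not whole, and are not a measure of depth. Suv39h1, the targeted gene, was at 12.4 FPKM in either control library, against 75.3 and 81.2 in SUV-OE (log2 fold change 2.56, standard error (SE) 0.11, limma adjusted p = 0.00866). Kit, which encodes the marker on which the cells were enriched, had 20.4 and 19.2 in control, against 28.6 and 25.4 in SUV-OE. Of the 6 myeloid leukemic progenitor markers listed (Kit, Hoxa9, Meis1, Mpo, Cd34 and Fcgr3), all 6 passed the filter on low values. They did not move together, since Kit and Meis1 lay wholly higher in SUV-OE, Hoxa9 and Mpo wholly lower, and Cd34 and Fcgr3 overlapped. The 6 neutrophil markers listed were all higher in each SUV-OE library than in each control library, and so were 7 of 8 B-lymphoid markers, as in 25.4% of all tested genes. The neutrophil FPKM summed to 745 and 2361 in control, against 6608 and 8056 in SUV-OE. The B-lymphoid FPKM summed to 21.1 and 29.3 in control, against 40.2 and 91.0 in SUV-OE. Of the erythroid markers, 3 of 6 lay wholly higher in SUV-OE (again 25.4% of all tested genes), with sums of 12.0 and 113 in control, against 82.2 and 57.8 in SUV-OE. Of the 6 T and NK cell markers, 5 were under an FPKM of 0.5 in every library. Of the 4 endothelial markers, 2 were under that level. Cdh5 had 0.232 and 0.491 in control, against 0.848 and 0.381 in SUV-OE, and overlapped between the groups, while Pecam1, which is not specific to endothelium, had 16.7 and 23.3 in control, against 70.3 and 64.1 in SUV-OE. The part of these cell types in the demethylase values was not tested, and in bulk RNA a changed share of cells cannot be told apart from changed RNA per cell.

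**Figure D1:**
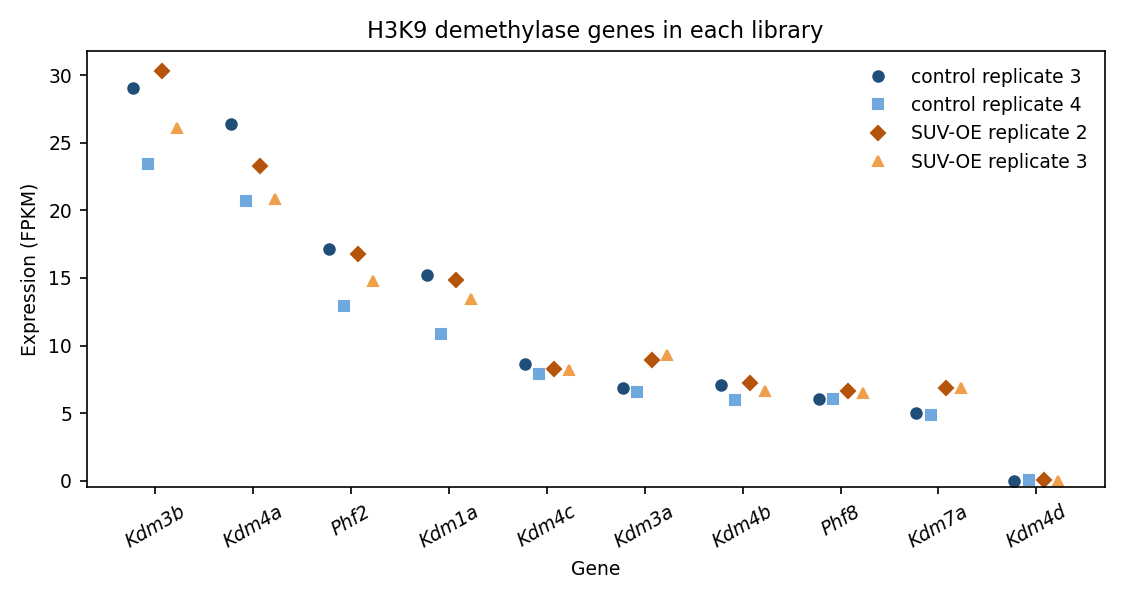
Expression of the 10 demethylase genes in FPKM (vertical axis) in each of the 4 libraries, 1 marker per library, with genes ordered by their mean. Kdm3b and Kdm4a are the highest in every library, Kdm4d lies at about 0, and Kdm3a and Kdm7a are the genes whose SUV-OE libraries stand clearly above those of control.

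The demethylase genes covered a wide range of levels, and their order was nearly the same in each library. Kdm3b was the highest member in all 4 libraries, with a mean FPKM of 27.2, followed by Kdm4a with 22.8. The ranges of these genes over the 4 libraries overlapped, although within each library Kdm3b lay above Kdm4a. Phf2 (mean FPKM 15.4) and Kdm1a (13.6) held the third and the fourth place in every library, and their ranges also overlapped. A gap that no library bridged separated Kdm4a from Phf2 and Kdm1a from the members below. Kdm4c (8.24), Kdm3a (7.91), Kdm4b (6.72), Phf8 (6.30) and Kdm7a (5.89) followed, and each had a range that overlapped with that of its neighbour in the order. Kdm7a moved from the ninth place in both control libraries, and Kdm3a from the sixth or the seventh, to higher places in SUV-OE. Kdm3a was the fifth member in both SUV-OE libraries.

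Kdm4d was not detectable at this depth. It was listed at an FPKM of 0 in control replicate 3 and in SUV-OE replicate 3, and 1 read gave 0.0207 in control replicate 4 and 0.0197 in SUV-OE replicate 2. At its exon length, 3 reads, the upper limit that a count of 0 allows, correspond to between 0.0539 and 0.0621 FPKM (counting error only). Kdm4d thus did not pass the filter of a mean FPKM of at least 0.5, and the other 9 members did.

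For each of the 13736 genes above that filter, log2(FPKM + 1) was tested for a difference between the groups with limma. A gene was called where the adjusted p was under 0.05 and the log2 fold change reached 1 in either direction. On this scale the change of weakly expressed genes is understated. By this rule 0 of the 9 tested members were called, against 1.22% of all tested genes, and 0 had an adjusted p under 0.05 whatever the fold change, against 1.29%. At an adjusted p under 0.1 there were again 0, against 4.85%. At an unadjusted p-value under 0.05, 2 members were higher in SUV-OE, where 10.3% of all tested genes were, and 0 were lower, where 10.4% were. limma-voom on the recovered reads called 0 members as well, against 4.68% of the 14292 genes it tested. The SUV-OE pair lay wholly above the control pair in 3 members (Kdm3a, Kdm7a and Phf8), where 25.4% of all tested genes did so, and below them in 0 members, against 28.4%. The median log2 fold change of the 9 members was 0.093, with 7 above 0, while the median of all tested genes was -0.022. Without control replicate 4 the members' median was -0.046, with 3 members above 0, and without control replicate 3 it was 0.26, with 9 above 0.

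**Figure D2:**
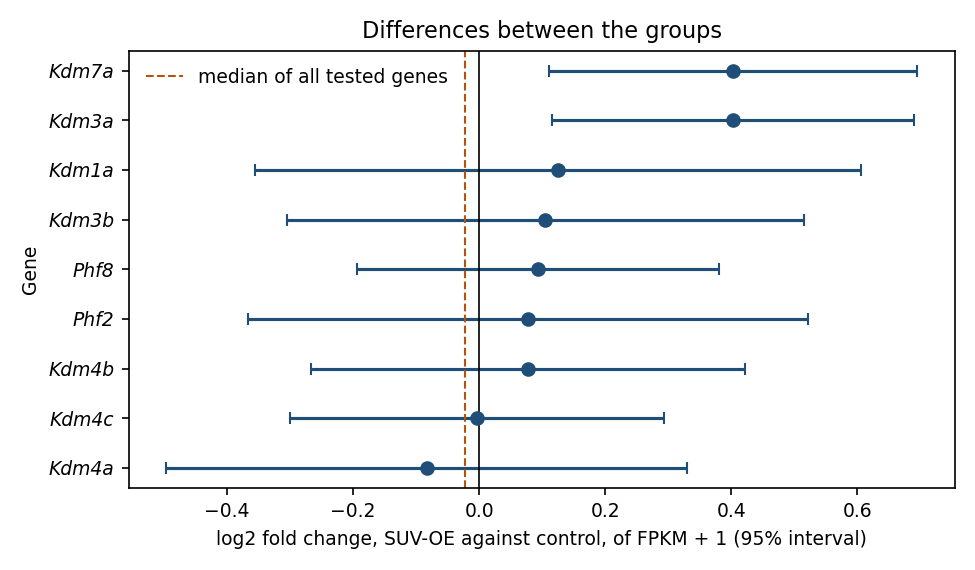
Log2 fold change of SUV-OE against control on the FPKM + 1 scale (horizontal axis) for the 9 tested members, with 95% intervals from limma that are not adjusted for the number of genes. The intervals of Kdm3a (0.12 to 0.69) and Kdm7a (0.11 to 0.70) lie above 0, and the other 7 include 0.

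Kdm3a (ENSMUSG00000053470, minus strand of chromosome 6, 71588972 to 71632990 in mm10) encodes a demethylase of mono- and dimethylated H3K9. It stood at 6.82 and 6.53 FPKM in control, against 8.95 and 9.33 in SUV-OE, from 1091, 906, 1307 and 1365 reads. The SUV-OE libraries were both higher and the groups did not overlap, with a gap between them that was several times wider than the spread within either group. The log2 fold change was 0.40 (SE 0.11), with an unadjusted limma p of 0.0157 and an adjusted p of 0.155 over all tested genes. By limma-voom on the recovered reads, it was 0.45 (SE 0.13, adjusted p = 0.0934).

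Kdm7a (ENSMUSG00000042599, minus strand of chromosome 6, 39136623 to 39206789 in mm10) encodes a JmjC demethylase of the lower methylation states of H3K9 and H3K27, which binds trimethylated H3K4 through its PHD finger. It stood at 5.03 and 4.83 FPKM in control, against 6.85 and 6.83 in SUV-OE, from 985, 819, 1222 and 1222 reads. Here too, both SUV-OE libraries were higher. The log2 fold change was 0.40 (SE 0.11, limma unadjusted p = 0.0168, adjusted p = 0.158). By limma-voom it was 0.47 (SE 0.13, adjusted p = 0.0865). A log2 fold change of this size, 0.4 or more in either direction, was seen in 24.7% of all tested genes. The neutrophil marker sums were higher in both SUV-OE libraries too, and their part in the values of Kdm3a and Kdm7a was not tested.

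The sequences upstream of Kdm3a and Kdm7a are shown because these members differed most between the groups. Both stretches come from RefSeq promoter windows on GRCm38.p6, the assembly of mm10, and are given 5′ to 3′ on the minus strand, ending at the base before the GENCODE M21 gene start. Capitals mark GGGCGG (the GC box), CCAAT, and ACGTG and GCGTG (the core letters of hypoxia-response elements), on either strand.
Kdm3a, chr6:71632991-71633167: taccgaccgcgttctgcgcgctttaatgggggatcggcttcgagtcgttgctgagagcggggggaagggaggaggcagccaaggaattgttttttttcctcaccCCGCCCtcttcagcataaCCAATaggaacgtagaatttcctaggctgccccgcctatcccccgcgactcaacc
Kdm7a, chr6:39206790-39207023: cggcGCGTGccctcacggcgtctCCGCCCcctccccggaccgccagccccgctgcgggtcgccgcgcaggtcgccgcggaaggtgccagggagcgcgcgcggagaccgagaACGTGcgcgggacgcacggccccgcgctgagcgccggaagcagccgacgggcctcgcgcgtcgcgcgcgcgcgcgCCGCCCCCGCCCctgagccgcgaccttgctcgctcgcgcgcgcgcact

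The GC content was 57.6% in the Kdm3a stretch of 177 bases and 82.1% in the Kdm7a stretch of 234 bases. The Kdm3a stretch held 1 GC box and 1 CCAAT, and neither hypoxia core, while the full RefSeq window, which runs past the gene start, also held GCGTG. The Kdm7a stretch held 3 GC boxes, 1 ACGTG and 1 GCGTG, and no CCAAT. Over the full windows of 300 bases, RefSeq entries of 8 members were matched, with 11 windows. GGGCGG was present in 7 of these 11 windows and in 35.7% of all 32851 windows. GCGTG was present in 5 (Kdm1a, Kdm3a, Kdm4c, Kdm7a and Phf8) and in 32.4% of all, ACGTG in 3 and in 19.6%, and CCAAT in 5 and in 37.4%. CACGTG, which contains ACGTG, was present in 1 and in 7.15% of all. Of the 10 motifs searched on both strands, TGACGTCA was in 1 member window (1.79% of all), and GCGGGAA, CCGGAAGT, TTCCGGAA and ATTGCGCAA were in 0, with 4.6%, 3.89%, 0.712% and 0.0487% of all. A match describes letters in the window only.

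Phf8 (ENSMUSG00000041229, plus strand of chromosome X, 151520672 to 151633859 in mm10) encodes a KDM7-family demethylase that also acts on monomethylated H4K20. It was at 6.06 FPKM in either control library, against 6.60 and 6.46 in SUV-OE. The groups did not overlap, but the step was small, at 7.74% of the control mean. The log2 fold change was 0.093 (SE 0.11, 95% interval -0.19 to 0.38, limma adjusted p = 0.668).

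Phf2 (ENSMUSG00000038025, minus strand of chromosome 13, 48801750 to 48871119 in mm10), the third gene of the KDM7 family, stood at 17.1 and 12.9 FPKM in control, against 16.8 and 14.8 in SUV-OE. Both SUV-OE values lay between the control values. The log2 fold change was 0.078 (SE 0.17, 95% interval -0.37 to 0.52, limma adjusted p = 0.828). The antisense gene Phf2os1, with an FPKM of 3.05 to 5.59, shares 8 exon bases with Phf2.

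Kdm1a (ENSMUSG00000036940, minus strand of chromosome 4, 136550540 to 136602723 in mm10) stood at 15.3 and 10.9 FPKM in control, against 14.9 and 13.4 in SUV-OE. The control libraries were the highest and the lowest of the 4, and both SUV-OE libraries lay between them. The log2 fold change was 0.13 (SE 0.18, 95% interval -0.36 to 0.61, limma adjusted p = 0.733). Kdm1a showed the widest interval of all 9 tested members.

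Kdm3b (ENSMUSG00000038773), the paralog of Kdm3a, stood at 29.1 and 23.4 FPKM in control, against 30.3 and 26.1 in SUV-OE. The groups overlapped, and the spread within each was wider than the difference between their means. The log2 fold change was 0.10 (SE 0.16, 95% interval -0.31 to 0.51, limma adjusted p = 0.738). The lincRNA gene Gm26538 lies on the opposite strand and shares 3468 exon bases with Kdm3b, but its FPKM was at most 0.402. Likewise, the antisense gene 4930599N23Rik shares 287 exon bases with Kdm7a and had an FPKM of at most 0.384. No source used here states that reads were counted by strand.

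The KDM4 genes encode the demethylases of trimethylated H3K9. Kdm4a (ENSMUSG00000033326, minus strand of chromosome 4, 118136957 to 118180043 in mm10) stood at 26.4 and 20.7 FPKM in control, against 23.3 and 20.8 in SUV-OE. Both SUV-OE libraries lay between the control libraries, and the log2 fold change was -0.083 (SE 0.16, 95% interval -0.50 to 0.33, limma adjusted p = 0.798). Its sign turned with the scaling, to 0.018 after quantile normalization.

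Kdm4b (ENSMUSG00000024201, plus strand of chromosome 17, 56326062 to 56402870 in mm10) stood at 7.06 and 5.99 FPKM in control, against 7.23 and 6.62 in SUV-OE. The groups overlapped, with a log2 fold change of 0.077 (SE 0.13, 95% interval -0.27 to 0.42, limma adjusted p = 0.773). Kdm4c (ENSMUSG00000028397, plus strand of chromosome 4, 74242497 to 74405860 in mm10) stood at 8.65 and 7.86 FPKM in control, against 8.26 and 8.18 in SUV-OE, which again lay between the control values. Its log2 fold change was -0.0035 (SE 0.11, 95% interval -0.30 to 0.29, limma adjusted p = 0.990), the smallest of the 9 tested members, and its sign turned under both other scalings.

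Summed over Kdm4a, Kdm4b, Kdm4c and Kdm4d, the FPKM was 42.1 and 34.6 in control, against 38.8 and 35.6 in SUV-OE. The groups overlapped, with means of 38.3 ± 5.36 (SD, n = 2) in control and 37.2 ± 2.25 (SD, n = 2) in SUV-OE (exact permutation test, two-sided, p = 1). With 2 libraries per group the smallest p of this exact permutation test is 0.333. The summed FPKM of the other 6 members was 79.4 and 64.6 in control, against 84.4 and 77.0 in SUV-OE, which overlapped as well (exact permutation test, two-sided, p = 0.667). Suv39h1 and Suv39h2, the writers of trimethylated H3K9 that form the pair of SUV39 enzymes, summed to 14.9 and 14.8 in control, against 77.2 and 83.3 in SUV-OE. Their ratio to the KDM4 sum was 0.354 and 0.428 in control, against 1.99 and 2.34 in SUV-OE, a 5.53-fold higher mean (exact permutation test, two-sided, p = 0.333, the smallest it can give). Since Suv39h1 was overexpressed by design, the ratio gives the size of that step against the erasers. Taken alone, the mean KDM4 sum of SUV-OE was 0.971 times that of control, and the mean SUV39 sum was 5.40 times as high.

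**Figure D3:**
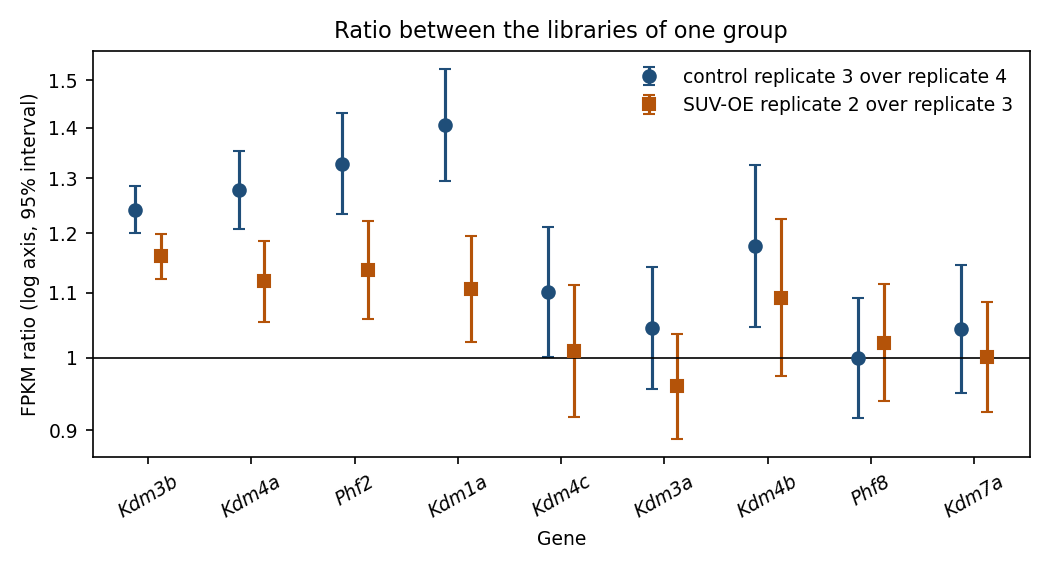
FPKM ratio between the libraries of the same group (vertical log axis) for the 9 tested members, control replicate 3 over replicate 4 and SUV-OE replicate 2 over replicate 3, with exact 95% intervals that cover counting error only. Kdm1a has the highest control ratio (1.40), and Kdm3a, Kdm7a and Phf8 have intervals that include 1 in both groups.

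The spread within the groups was not alike across the demethylase genes. In control, all 9 tested members were higher in replicate 3 than in replicate 4, with FPKM ratios from 1.0 for Phf8 to 1.40 for Kdm1a. Of all tested genes, 49.8% were higher in control replicate 3. The ratio was 1.33 for Phf2 (exact 95% interval 1.23 to 1.43), 1.28 for Kdm4a (1.21 to 1.35) and 1.24 for Kdm3b (1.20 to 1.29). These intervals cover counting error only and not the spread between separate libraries. In SUV-OE, 8 of 9 members were higher in replicate 2, with ratios from 0.959 for Kdm3a to 1.16 for Kdm3b, where 49.6% of all tested genes were higher in replicate 2. In log2(FPKM + 1), the median difference between the control libraries was 0.20 over the members and 0 over all tested genes. Between the SUV-OE libraries, replicate 2 minus replicate 3, it was 0.11 over the members and -0.0017 over all tested genes. The genes that differed most between control libraries, Kdm1a, Phf2, Kdm4a and Kdm3b, were also the 4 members with the highest levels. The reads of Kdm3b and Phf2 were not whole at their exon length in GENCODE M21, so their intervals are approximate.

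**Figure D4:**
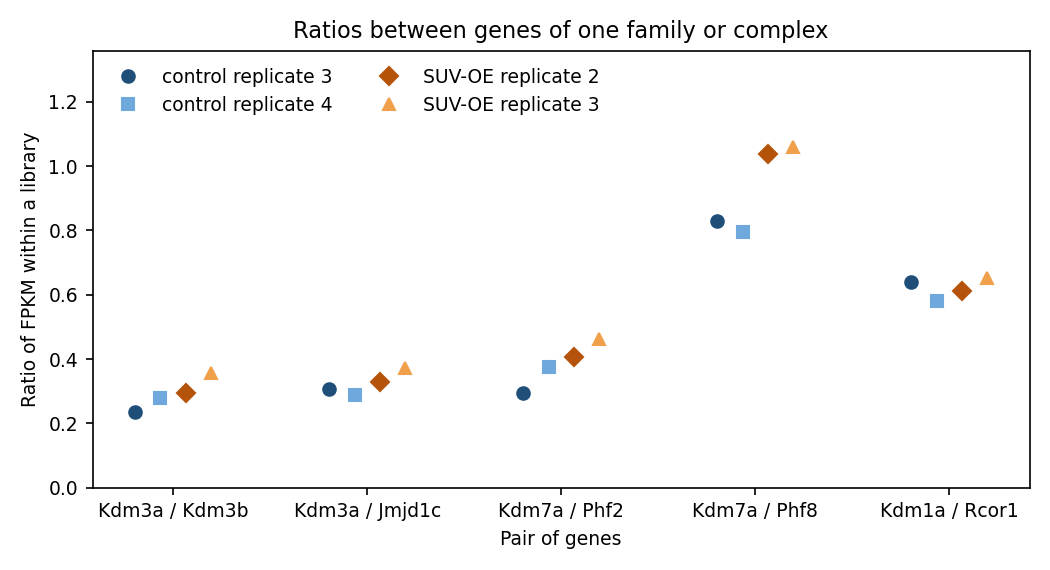
Ratio of the FPKM of a pair of genes within each library (vertical axis), for Kdm3a against its relatives Kdm3b and Jmjd1c, Kdm7a against Phf2 and Phf8, and Kdm1a against its partner Rcor1. In the first 4 pairs the SUV-OE ratios all lie above the control ratios, whereas Kdm1a to Rcor1 stays between 0.582 and 0.652. The pairs were chosen after the values were seen, and Kdm3a and Kdm7a by themselves did not overlap between the groups.

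Ratios between genes within the same library do not change when a whole library is multiplied by a factor, and these were chosen after the values were seen. Kdm3a to Kdm3b was 0.234 and 0.279 in control, against 0.295 and 0.357 in SUV-OE. Kdm7a to Phf2 was 0.294 and 0.374 in control, against 0.408 and 0.462 in SUV-OE. In both pairs the SUV-OE ratios were higher, by 1.27-fold and 1.30-fold in the mean, but control replicate 4 came close to SUV-OE replicate 2. Kdm7a to Phf8, a pair of genes that differed little between control libraries, was 0.830 and 0.796 in control, against 1.04 and 1.06 in SUV-OE. Kdm3a to Jmjd1c was 0.306 and 0.288 in control, against 0.330 and 0.372 in SUV-OE. All 4 ratios gave p = 0.333 (exact permutation test, two-sided), the smallest value possible, which any ratio without overlap gives. Since Kdm3a and Kdm7a by themselves did not overlap between the groups, these p-values are no separate evidence. As a share of the summed FPKM of all 10 members, Kdm3a made up 5.61% and 6.58% in control, against 7.27% and 8.29% in SUV-OE. For Kdm7a the shares were 4.14% and 4.87% in control, against 5.56% and 6.07% in SUV-OE. Kdm4a, in turn, made up 21.8% and 20.9% in control, against 18.9% and 18.5% in SUV-OE, although its FPKM overlapped between the groups. A share also falls when other members rise. The shares of the remaining members overlapped between the groups.

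KDM1A works in the CoREST complex with RCOR1 and the deacetylases HDAC1 and HDAC2, and it is brought to DNA by GFI1 and GFI1B. In a list of 21 genes of this complex and its recruiters, 18 were tested, and 0 were called. At an unadjusted p-value under 0.05, 2 of the 18 were higher in SUV-OE (10.3% of all tested genes) and 0 were lower (10.4%), and the list median was 0.0053. Rcor1 followed Kdm1a across the libraries, at 23.8 and 18.7 FPKM in control, against 24.4 and 20.6 in SUV-OE. This likeness is not particular to the complex, since Phf2, which is not on this list, followed Kdm1a as well. Of the complex, Hdac1 (71.5 and 69.4 in control, against 56.1 and 59.7 in SUV-OE) did not follow it. Hdac2 (31.8 and 32.5 in control, against 26.6 and 31.1 in SUV-OE) did not either. The ratio of Kdm1a to Rcor1 was narrow, at 0.641 and 0.582 in control, against 0.610 and 0.652 in SUV-OE. Gfi1b, a repressor gene of erythroid and megakaryocytic cells, stood at 0.112 and 0.130 FPKM in control, against 2.86 and 1.87 in SUV-OE (log2 fold change 1.57, SE 0.21, limma adjusted p = 0.0537). Of the erythroid markers, Klf1 had 0.972 and 0.927 in control, against 3.42 and 2.46 in SUV-OE, and their part in the Gfi1b value was not tested. Phf21a, which encodes the BHC80 reader of unmethylated H3K4 in this complex, had 4.47 and 4.57 in control, against 8.20 and 7.32 in SUV-OE (log2 fold change 0.66, SE 0.12, limma adjusted p = 0.0858).

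Other JmjC and LSD genes, whose products act mainly on other residues, were listed as a family background. Of 23 listed genes, 21 were in the table and 19 were tested, of which 0 were called. At an unadjusted p-value under 0.05, 1 of the 19 was higher (10.3% of all tested genes) and 1 was lower (10.4%) in SUV-OE. Kdm5b, the gene of an H3K4 demethylase, stood at 2.02 and 1.73 FPKM in control, against 4.29 and 3.91 in SUV-OE. Kdm5b thus had a log2 fold change of 0.83 (SE 0.14, limma adjusted p = 0.0780), larger than that of any H3K9 demethylase. Jmjd6 had 14.4 and 15.6 in control, against 9.01 and 12.1 in SUV-OE (log2 fold change -0.48, SE 0.17, limma adjusted p = 0.213). Jmjd1c, the third gene of the KDM3 family, had 22.3 and 22.7 in control, against 27.1 and 25.1 in SUV-OE. Its libraries did not overlap between groups, with a log2 fold change of 0.21 (SE 0.11, limma adjusted p = 0.365).

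On the side of the writers, 7 of 9 H3K9 methyltransferase genes were tested, and the overexpressed Suv39h1 was the 1 gene called. At an unadjusted p-value under 0.05, Prdm2 was higher, at 8.47 and 8.42 FPKM in control, against 10.7 and 11.0 in SUV-OE (limma adjusted p = 0.191). Setdb2 was lower, with 7.39 and 8.05 in control, against 5.72 and 5.98 in SUV-OE (limma adjusted p = 0.200).

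The JmjC enzymes need 2-oxoglutarate, and 2-hydroxyglutarate inhibits them. In a list of 23 genes of 2-oxoglutarate, FAD and 2-hydroxyglutarate enzymes, 22 were tested and 0 were called. Of the 22, 17 had a log2 fold change below 0, and in 13 the SUV-OE pair lay wholly below the control pair, as in 28.4% of all tested genes. The list median was -0.20 and became -0.10 after quantile normalization, when the median of all tested genes was -0.022 and -0.024. At an unadjusted p-value under 0.05, 5 of the 22 were lower (10.4% of all tested genes) and 0 were higher (10.3%) in SUV-OE. Idh3a, a subunit of the mitochondrial isocitrate dehydrogenase that makes 2-oxoglutarate, stood at 58.4 and 58.0 FPKM in control, against 39.7 and 41.1 in SUV-OE (log2 fold change -0.52, SE 0.11, limma adjusted p = 0.110). Psat1, whose product makes 2-oxoglutarate in serine synthesis, had 67.9 and 70.5 in control, against 51.1 and 51.2 in SUV-OE (log2 fold change -0.43, SE 0.11, limma adjusted p = 0.151). Idh3g, the gene of another subunit of the same dehydrogenase as Idh3a, had 58.5 and 60.9 in control, against 44.3 and 47.5 in SUV-OE (log2 fold change -0.37, SE 0.12, limma adjusted p = 0.186). The list mixes genes whose products make 2-oxoglutarate with genes whose products use it. Dlst, one of the latter, was also lower, with 73.4 and 65.4 in control, against 54.3 and 55.6 in SUV-OE. Idh1, one of the former, lay wholly higher, with 54.4 and 56.8 in control, against 59.5 and 64.8 in SUV-OE. Levels of 2-oxoglutarate and 2-hydroxyglutarate were not analysed here, so no direction for them follows.

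Kdm3a, Kdm4b and Kdm4c are known as genes that hypoxia-inducible factors raise. In a list of 25 hypoxia response genes, 22 were tested and 0 were called, with 4 higher and 3 lower at an unadjusted p-value under 0.05 (10.3% and 10.4% of all tested genes). The list median was 0.038, with 12 genes above 0 and 10 below. Ndrg1 stood at 1.33 and 1.29 FPKM in control, against 3.09 and 3.61 in SUV-OE (log2 fold change 0.91, SE 0.14, limma adjusted p = 0.0686). P4ha1, the gene of a collagen prolyl hydroxylase, was at 7.31 and 8.72 in control, against 14.6 and 23.0 in SUV-OE (log2 fold change 1.11, SE 0.24, limma adjusted p = 0.110). Both genes were higher in each SUV-OE library. Ldha, the gene of a lactate dehydrogenase subunit, instead had 330.2 and 332.1 in control, against 207.8 and 229.7 in SUV-OE (log2 fold change -0.60, SE 0.16, limma adjusted p = 0.156). Egln3, which encodes a prolyl hydroxylase of hypoxia-inducible factors, was lower as well in both SUV-OE libraries, at 26.3 and 19.2 in control, against 14.5 and 14.4 in SUV-OE (log2 fold change -0.60, SE 0.17, limma adjusted p = 0.165).

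**Figure D5:**
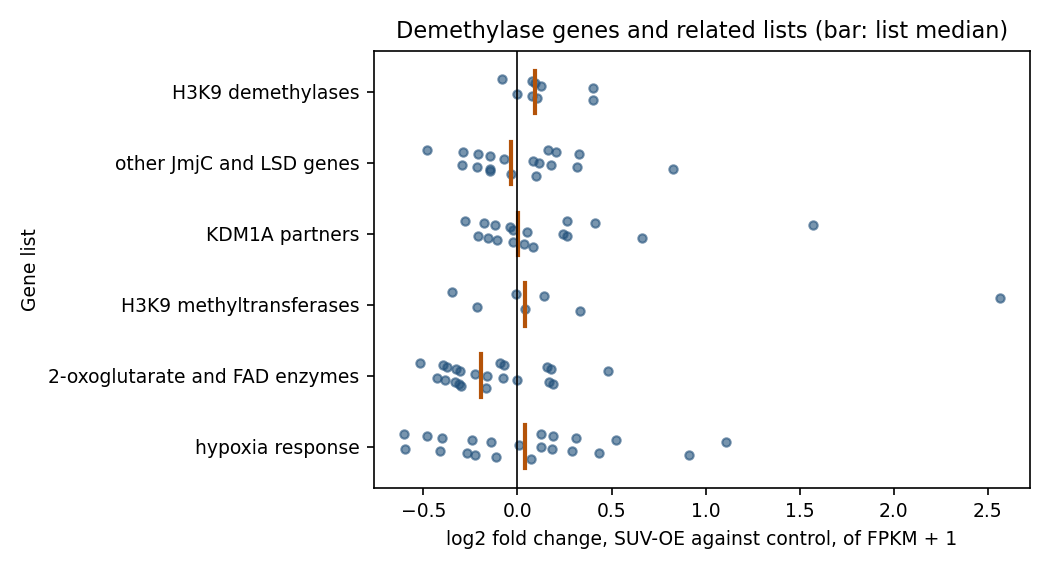
Log2 fold change of SUV-OE against control on the FPKM + 1 scale (horizontal axis) for each tested gene of the H3K9 demethylases and of 5 related lists, with a bar at the list median. The demethylases lie between -0.083 and 0.40, the median of the 2-oxoglutarate and FAD enzymes is -0.20, and the point at 2.56 is the overexpressed Suv39h1.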

How the data were processed

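RNA-Seq was done on c-Kit+ MA9 AML cells, in 2 control and 2 SUV-OE libraries. Per the labels and the study's methods, TruSeq RNA v2 libraries were aligned to mm10 with TopHat2, and the submitters' processing notes also name CASAVA 1.8. The deposited values are FPKM, one column for each library, which the authors' methods say were computed with Cufflinks. The annotation release is not given in the sources used here. The study called genes with a model for read counts. As the deposited unit is FPKM, limma 3.58.1 in R 4.3.3 was used on log2(FPKM + 1), for 13736 genes whose mean FPKM reached 0.5, with group as the only term, an intensity trend and Benjamini-Hochberg adjustment over all of them. Sums and ratios were tested by exact permutation with SciPy 1.17.1.

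Reads were recovered as multiples of the smallest step of each library, at GENCODE M21 exon lengths. Of 23552 genes, 78.5% gave whole reads in all 4 libraries, within 0.01 of a whole number. limma-voom used these reads with the authors' divisors as library sizes, for the 14292 genes that averaged 10 reads or more. Floors are the FPKM of 3 reads. The floors and the exact intervals of ratios between libraries hold counting error only, whereas the intervals of log2 fold changes come from limma and rest on the spread between libraries. Tests on simulated data were run for the limma fit, limma-voom and the recovery of reads.

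All 10 members are named with their values. Suv39h1, Kit, Rcor1 and Jmjd1c were named by rule, as were up to 4 genes of each list with an unadjusted p under 0.05. Of the genes that this rule names, 1 is not reported here and the others are. The members and lists were chosen with earlier results of these data known. Pecam1, Cdh5, Klf1, Hdac1, Hdac2, Dlst, Idh1, the overlapping genes, the promoter motifs and the ratios within libraries were chosen after values were seen. Alternatives were a pseudocount of 0.1, no filter, a stricter filter (mean FPKM of 1), quantile normalization, scaling by median of ratios, a fit without trend, an adjusted p under 0.1, limma-voom, and leaving out each library. Figures were drawn with matplotlib 3.10.9.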

Additional observations from a re-analysis of the deposited data

How the results depend on the processing

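No paired analysis was possible because control and SUV-OE have only replicate number 3 in common. Under 11 alternatives the 9 tested members gave 99 values, of which 0 passed an adjusted p of 0.05 and 11 changed sign. In 5 of these fits, without the filter and without each library in turn, 0 genes of the whole table passed, so their 45 member values could not show a call. In the other fits, 0.844% to 4.68% of all tested genes were called. Kdm3a (0.38 to 0.45), Kdm7a (0.36 to 0.47) and Phf8 (0.065 to 0.12) kept their sign in all 11, with adjusted p from 0.0934 to 0.712 for Kdm3a and from 0.0865 to 0.742 for Kdm7a. Fits without 1 library assume that the lone library of a group varies like the other group.

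Quantile normalization turned Kdm4a to 0.018 and Kdm4c to 0.000157, and median-of-ratios scaling turned Kdm4c to 0.029. With each library left out in turn, Kdm1a ranged from -0.10 to 0.35, Kdm3b from -0.046 to 0.26, Kdm4a from -0.25 to 0.087, Kdm4b from -0.025 to 0.18, Kdm4c from -0.066 to 0.058 and Phf2 from -0.11 to 0.27. In each of these, the lowest value came without control replicate 4 and the highest without control replicate 3. Likewise, the member median ranged from -0.046 to 0.26. The members whose groups did not overlap ranged from 3 to 9, with 9 of 9 without control replicate 3 (82.2% of all tested genes), 7 without control replicate 4 (84%), 5 without SUV-OE replicate 3 (71.7%) and 3 without SUV-OE replicate 2 (69.3%), against 3 with all libraries (53.9%). After quantile normalization, the median of the 2-oxoglutarate, FAD and 2-hydroxyglutarate list moved from -0.20 to -0.10, and the cause was not tested. The other related list medians, recomputed under quantile normalization and median-of-ratios scaling only, and the KDM4 sum, the sum of the other members and the SUV39 to KDM4 ratio, under these and with each library left out, moved by less than the spread between replicates.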
